A study of Mus musculus with 12 samples.

Results

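The expression of 5 transmembrane mucin genes, Muc1, Muc3, Muc4, Muc13 and Muc20, was followed in the colon of 12 mice. They were chosen by gene symbol, and all 5 were present among the 54532 genes of the deposited count table. All 5 also passed the filter on low counts, which left 16904 genes. The mice were male, wild-type C57BL/6J animals, taken into the study at an age of 5 weeks, and fell into 4 groups of 3. Control mice were given no dextran sodium sulfate (DSS), which damages the lining of the colon when mice drink it. The model group received DSS at 3%, the Rhy group received DSS and rhynchophylline (Rhy), an alkaloid of Uncaria plants, and the DXM group received DSS and the glucocorticoid dexamethasone (DXM) at 4 mg/kg. Rhy was given to the study's mice at 2, 4 or 8 mg/kg, and the labels do not give the dose of the sequenced mice. RNA came from sections of whole colon, whose position along the colon is not stated.

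Transmembrane mucins are anchored in the apical membrane of epithelial cells and form the glycocalyx, the layer of sugar-coated protein beneath the secreted mucus. Their long extracellular domains carry O-linked glycans, and their cytoplasmic tails pass signals into the cell. Muc3 and Muc13 belong to the brush border of colonocytes, Muc1 and Muc4 interact with receptors of the ErbB family, and Muc20 has been described as a partner of the Met receptor. In contrast, Muc2, the gel-forming mucin of goblet cells, is secreted.

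The libraries held 14346478 to 17749716 counts. CPM below are counts scaled by the TMM method to a common library size, and levels of different genes are compared only as FPKM, which is also divided by gene length. Mitochondrial genes took 6.33% to 25.7% of the counts. Model 1 and model 2 resembled each other most, with a common dispersion (the variance beyond counting noise) of 0.00201 against 0.0604 to 0.351 in the other 65 pairs, so the spread within the model group may be understated. Hoxb13, a homeobox gene of the most distal colon, was at 0 to 1.49 CPM in control 3, model 3 and Rhy 1 and at 72.0 to 316.5 CPM in the other 9 libraries. Values with and without these 3 libraries are therefore given below for each member, though not for every comparison. The pan-epithelial markers were present in every group, with a summed level of 13390 to 22390 CPM.

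The positions are those of the deposited table on mm10 and were the same in GENCODE M21. Muc1 (ENSMUSG00000042784) lies at chr3:89229057-89233381 on the plus strand. Muc3 (ENSMUSG00000037390) lies at chr5:137134922-137149322 on the minus strand. Muc4 (ENSMUSG00000079620, chr16:32735886-32782391, plus strand), Muc20 (ENSMUSG00000035638, chr16:32777419-32797435, minus strand) and Muc13 (ENSMUSG00000022824, chr16:33794037-33819934, plus strand) share chromosome 16. Muc4 and Muc20 run toward each other and overlap at their 3′ ends over 4973 bases, of which 627 are exonic in both. Since the sources do not state whether strand was used in counting, reads in this stretch cannot be assigned with certainty to either gene. At its 5′ end, Muc13 overlaps Gm15657, an antisense gene with 4 to 70 counts per library, over 2838 bases.

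The Muc3 model of the count table had an exonic length of 1943 bases. The RefSeq start of Muc3 used here, at position 137166046, is 16724 bases upstream of that model. It lies 24 bases from the first base of Gm3054, a separate gene of 9 to 106 counts per library. The RefSeq gene as a whole is listed as reaching position 137166048. The counts of Muc3 thus describe the 3′ part of the gene, and its FPKM depends on the short length. A close relative, Muc3a, lies 59491 bases upstream of Muc3 in the same orientation and had 1000 to 3930 counts per library, against 23751 to 72455 for Muc3. Reads that match both genes could be split between them or lost, which makes the level of each uncertain.

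The 250 bases before the start of 4 members are shown because their levels carry the comparisons below. They are taken from RefSeq on GRCm38.p6, where all 5 members were found, and are written 5′ to 3′ on the gene's strand, with capitals for matches to the motifs searched. The Muc1 window is chr3:89228806-89229055 (plus strand). The Muc3 window is chr5:137166047-137166296 (minus strand), at the RefSeq start. The Muc4 window is chr16:32735636-32735885 and the Muc13 window, at the first of 2 starts in RefSeq, is chr16:33793787-33794036, both on the plus strand.
Muc1: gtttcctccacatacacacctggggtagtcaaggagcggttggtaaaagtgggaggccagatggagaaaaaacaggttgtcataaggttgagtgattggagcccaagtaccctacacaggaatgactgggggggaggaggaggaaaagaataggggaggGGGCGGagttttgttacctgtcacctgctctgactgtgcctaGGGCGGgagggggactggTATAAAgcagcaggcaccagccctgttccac
Muc3: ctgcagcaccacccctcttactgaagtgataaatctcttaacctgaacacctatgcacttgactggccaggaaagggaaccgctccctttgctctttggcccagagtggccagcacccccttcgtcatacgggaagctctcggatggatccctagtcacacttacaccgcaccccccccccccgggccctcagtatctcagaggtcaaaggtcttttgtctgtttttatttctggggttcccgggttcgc
Muc4: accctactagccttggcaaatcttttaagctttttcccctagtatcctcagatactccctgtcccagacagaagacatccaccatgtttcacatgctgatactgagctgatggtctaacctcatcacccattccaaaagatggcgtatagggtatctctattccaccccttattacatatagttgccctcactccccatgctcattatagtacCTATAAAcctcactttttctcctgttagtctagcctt
Muc13: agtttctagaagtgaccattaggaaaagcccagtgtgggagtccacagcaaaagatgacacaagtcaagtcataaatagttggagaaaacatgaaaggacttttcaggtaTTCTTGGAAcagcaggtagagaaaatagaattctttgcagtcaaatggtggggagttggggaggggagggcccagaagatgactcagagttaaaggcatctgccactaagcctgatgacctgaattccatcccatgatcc

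Both strands were searched for 6 short motifs. The TATA box (TATAAA) stood in Muc1 at bases -31 to -26 and in Muc4 at bases -36 to -31 before the start, and 12.4% of all 32851 windows of this length held it. Muc1 also had the GC box (GGGCGG) at bases -91 to -86 and -49 to -44, a motif found in 32.7% of windows. In Muc4, a match to the core shared by posterior HOX and CDX factors (TTTATNG, 9.81% of windows) lay on the opposite strand at bases -37 to -31 and overlapped the TATA box. Muc13 held the STAT element (TTCNNNGAA, 7.02% of windows) at bases -140 to -132. The core of the AhR response element (GCGTG, 28.2% of windows) and the glucocorticoid half-site (TGTTCT, 16.1% of windows) were not among these letters in any of the 5 members, and Muc3 and Muc20 held none of the 6 motifs.

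Per length, the 5 mucins fell into an abundant pair and 3 genes of low level. Muc3 had 742 to 2630 FPKM (median 1030) and ranked 38th of the 16904 genes by mean FPKM. Muc13 had 406 to 1053 FPKM (median 614) and ranked 87th. Muc3 exceeded Muc13 in 12 of 12 libraries, by 1.22 to 3.68 times in FPKM, with the reservation on the length of Muc3 given above. Muc1 followed at 0.782 to 10.3 FPKM and Muc4 at 0.959 to 3.47 FPKM. These neighbours overlapped, with Muc1 above Muc4 in 8 of 12 libraries, and their ratio ran from 0.447 to 5.21. Muc20 stayed below both at 0.0175 to 0.592 FPKM, and its counts of 1 to 43 per library leave wide counting error. Among the other mucins, secreted Muc2 had a median of 163 FPKM but spread from 50.0 to 951 FPKM. Muc3a reached a median of 86.1 FPKM, and the sialomucin Cd164 one of 44.1 FPKM. The gel-forming mucins of stomach and airway, Muc5ac, Muc5b and Muc6, had totals of 2, 4 and 51 counts over all libraries, and Muc19 and Mucl1 had no count.

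**Figure D1:**
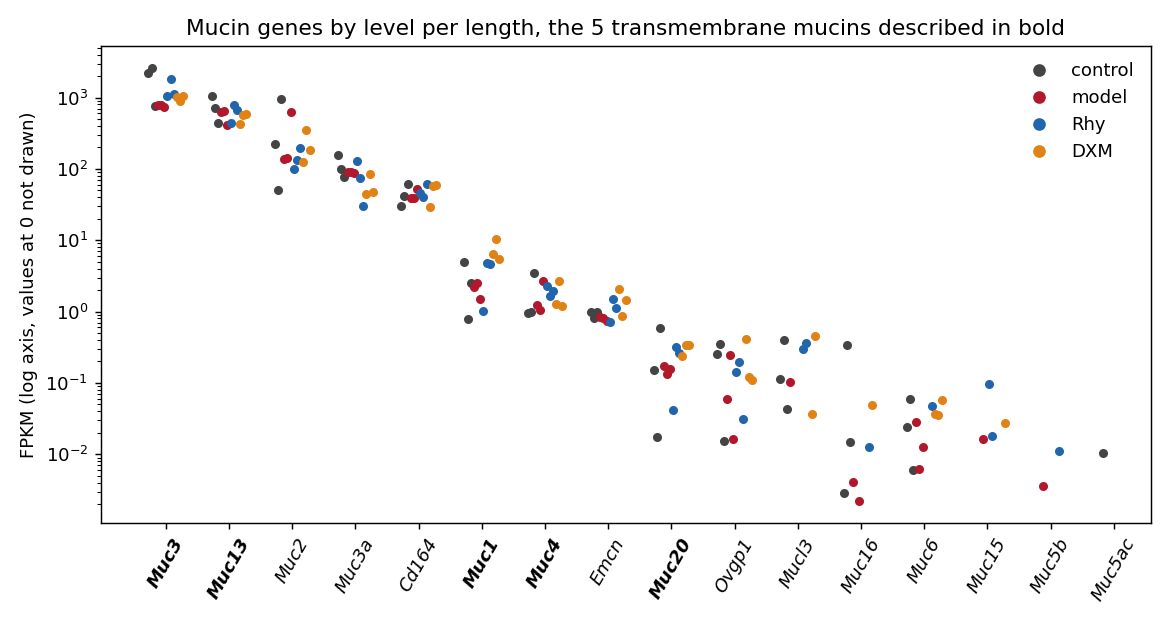
Level per length (FPKM, log axis) of the mucin genes with a count, in order of their mean, with 1 point per library coloured by group and the 5 transmembrane mucins described in bold. Muc3 and Muc13 lie above 400 FPKM in all libraries, whereas Muc1, Muc4 and Muc20 lie between 0.0175 and 10.3 FPKM.

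Muc3, the main transmembrane mucin of the brush border, was lower in the model group than in 2 of the 3 control mice. Its level was 4342, 5038 and 1467 CPM in control 1, 2 and 3, and 1573, 1568 and 1474 CPM in model 1, 2 and 3. It was 2033, 3551 and 2170 CPM in Rhy 1, 2 and 3, and 2017, 1805 and 2096 CPM in DXM 1, 2 and 3. Control 1 and control 2 were the highest of all 12 libraries, while control 3, a library with Hoxb13 near 0, was the lowest, so the control range enclosed all other groups. The model group was the tightest, with a mean of 1538 ± 55.4 CPM against 3616 ± 1893 CPM in the control group (SD, 3 mice each). Since model 1 and model 2 were near-identical over all genes, the spread of the model group may be understated.

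The fitted log2 fold change of Muc3 between the model and control groups was -1.23 (SE 0.40), a level 2.35-fold lower. The quasi-likelihood test of edgeR gave an unadjusted p of 0.00916 and an adjusted p of 0.467, and 9.62% of all genes had an unadjusted p under 0.05. Muc3 was thus not called, and neither were the other 4 members, in a comparison in which 0% of all genes were called at 0.05. For Muc3, the exact two-sided permutation test over the model and control libraries gave p = 0.4. Over all 9 DSS-treated mice against the control mice, the log2 fold change was -0.86 (SE 0.30). By edgeR, the adjusted p was 0.195 and the unadjusted p 0.0153, and 17.0% of all genes had an unadjusted p under 0.05. An exact two-sided permutation test over these 12 libraries gave p = 0.0955. Without the 3 libraries with Hoxb13 near 0, the log2 fold change was -1.62 between the model and control groups (edgeR adjusted p 0.167) and -1.20 for all DSS-treated mice (edgeR adjusted p 0.0475). This setting was added after the data were seen, and it leaves out control 3, the lowest control library. Its control group consisted of control 1 and control 2, the highest of all libraries. Its model group consisted of the near-identical libraries model 1 and model 2. The share of all genes called in this setting is not given, so its p-values are a description only. Leaving out 1 control library moved the value either way. Without control 2 it was -0.91 for the model mice (edgeR adjusted p 0.764) and -0.54 for all DSS-treated mice (edgeR adjusted p 0.587), and without control 3 it was -1.64 (edgeR adjusted p 0.146) and -1.26 (edgeR adjusted p 0.0549).

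Surface colonocyte markers were also lower in the model group than in the control group. Of these 8 markers, which include Krt20 and the chloride exchanger Slc26a3, 8 had a negative log2 fold change, with a median of -1.01 against 0.01 over all genes, and 5 had an unadjusted p under 0.05. Their summed level was 10530 to 18800 CPM in the model group and 16570 to 29870 CPM in the control group, and no marker was at 0. Fibroblast markers (5 of 5, median -0.47) and goblet markers (6 of 8, median -0.52) were lower too, with 0 at an unadjusted p under 0.05. Of the smooth muscle markers, 6 were higher and 1 lower (median 0.03), and of the immune markers 4 were higher and 4 lower. Of the tuft, fat, mesothelial and acinar markers tested, 2 of 5, 2 of 3, 0 of 1 and 1 of 1 were higher. The summed pan-epithelial level was 14600 to 16880 CPM in the model group and 15540 to 22390 CPM in the control group. As a share of this pan-epithelial sum, Muc3 made up 19.4%, 27.6% and 9.44% in control 1, 2 and 3 and 10.6%, 10.7% and 8.73% in model 1, 2 and 3. In bulk tissue, fewer cells of a type and less RNA per cell cannot be told apart. When log2 CPM was centred on the pan-epithelial markers of the same library and fitted with limma, the log2 fold change of Muc3 was -0.78 in the model group (adjusted p 0.410), -0.45 over all DSS-treated mice (adjusted p 0.423) and -0.24 in the DXM group (adjusted p 0.660), each against the control group. The uncentred edgeR value for the DXM group was -0.87. The part of the surface colonocyte markers in the level of Muc3 was not tested.

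In the Rhy group, Muc3 was above the model range in 3 of 3 mice. The lowest Rhy library, at 2033 CPM, exceeded the highest model library, at 1573 CPM. The log2 fold change was 0.75 (95% confidence interval -0.11 to 1.61), with an adjusted p of 0.9997 and an unadjusted p of 0.0812 by edgeR. The exact permutation p was 0.1, the smallest that 3 against 3 libraries can give. Muc3 was the 1 member that was higher without overlap, as were 5.51% of all genes. In this comparison 3.72% of all genes had an unadjusted p under 0.05 and 0% were called. All 5 members had a positive log2 fold change, with a median of 0.43 against -0.01 over all genes, but 0 of the 5 had an unadjusted p under 0.05. Likewise, the 3 DXM libraries were above the 3 model libraries for Muc3, with a log2 fold change of 0.36 (SE 0.39, edgeR adjusted p 0.824). Both comparisons share the model libraries, whose spread was small. The paralog Muc3a lay the other way, at a mean of 113 CPM in the DXM group against 175 CPM in the model group (log2 fold change -0.64, SE 0.45, edgeR adjusted p 0.729). Its log2 fold change in the Rhy mice was -0.25 (SE 0.45). With the counts of Muc3 and Muc3a summed, the log2 fold change against the model group was 0.67 in the Rhy mice and 0.28 in the DXM mice.

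The difference of Muc3 between the Rhy and model groups was smaller without Rhy 2, at 0.45 on the log2 scale (edgeR adjusted p 0.9998), and with centring on the pan-epithelial markers, at 0.48 (limma adjusted p 0.755). Markers of some cell types lay in the same direction. Of the surface colonocyte markers, 7 of 8 were higher in the Rhy group (median 0.46), with a summed level of 11040 to 22610 CPM against 10530 to 18800 CPM. Of the pan-epithelial markers, 7 of 8 were higher (median 0.28), with 17190 to 21120 CPM against 14600 to 16880 CPM. Of the smooth muscle markers, 7 of 7 were higher (median 0.42), 4 of them without overlap, with 5634 to 6497 CPM against 3649 to 4767 CPM. At an unadjusted p under 0.05 were 0, 0 and 1 of these markers, beside 3.72% of all genes. Of the fibroblast markers, 4 of 5 were higher (median 0.69), 2 of them at an unadjusted p under 0.05. Of the goblet markers, 6 of 8 were higher (median 0.17), with 0 at that p. Immune markers lay the other way, with 2 of 8 higher and 6 lower (median -0.75). Of the tuft, fat, mesothelial and acinar markers tested, 2 of 5, 0 of 3, 0 of 1 and 1 of 1 were higher, as were 2 of 4 genes of colon position. The part of any of these markers in the level of Muc3 was not tested.

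**Figure D2:**
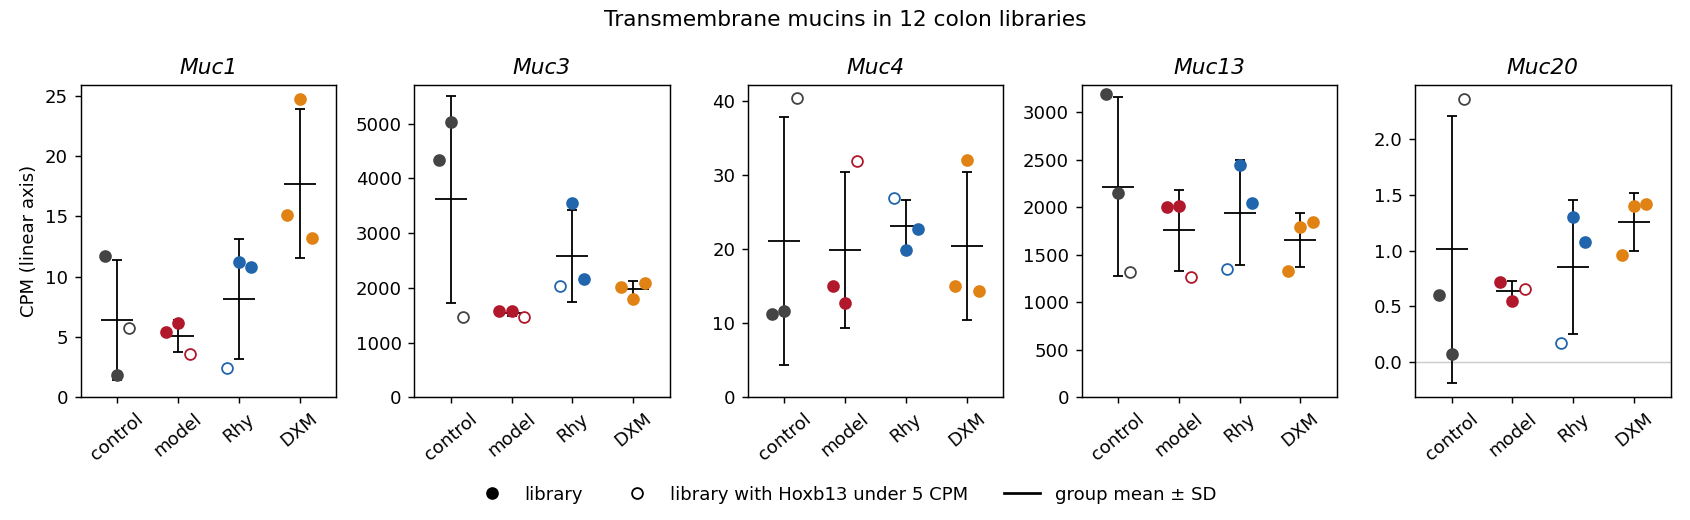
CPM (linear axes) of each transmembrane mucin in the 12 libraries by group, with the group mean and SD as bars and open circles for the 3 libraries with Hoxb13 under 5 CPM. Muc3 is highest in 2 control mice, Muc1 is highest in the 3 DXM mice, and the open circles are the highest Muc4 and the lowest Muc13 values within the control, model and Rhy groups.

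Muc13, the second abundant member, differed less between the groups. It was at 3188, 2144 and 1317 CPM in control 1, 2 and 3, at 1999, 2006 and 1261 CPM in model 1, 2 and 3, at 1351, 2438 and 2038 CPM in Rhy 1, 2 and 3, and at 1329, 1788 and 1846 CPM in DXM 1, 2 and 3. All groups overlapped. The log2 fold change was -0.34 (95% confidence interval -1.10 to 0.43) in model mice against control mice, 0.15 (-0.62 to 0.91) in Rhy mice against model mice and -0.09 (-0.85 to 0.68) in the DXM group against the model group. The interval for the model mice reaches down to -1.10, so that a difference near that of Muc3 cannot be told from none at this spread. The mean of Muc13 without the 3 libraries with Hoxb13 near 0 was 2666, 2003, 2238 and 1654 CPM in control, model, Rhy and DXM mice. Together, Muc3 and Muc13 made up nearly all mucin reads of the 5 members, with 0.188% to 1.71% left for the other 3. The share of Muc3 was 43.6% to 53.2% in the model group, 51.8% to 70.0% in the control group, 51.1% to 59.6% in the Rhy group and 49.4% to 59.7% in the DXM group.

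Muc4, a large mucin that binds ErbB2, overlapped between all groups and varied more within them than between their means. It was at 11.2, 11.6 and 40.4 CPM in control 1, 2 and 3, at 15.0, 12.7 and 31.9 CPM in model 1, 2 and 3, at 26.9, 19.9 and 22.7 CPM in Rhy 1, 2 and 3, and at 15.0, 32.0 and 14.3 CPM in DXM 1, 2 and 3. The group means were 21.1, 19.8, 23.1 and 20.4 CPM in control, model, Rhy and DXM mice. The log2 fold changes were -0.09 (95% confidence interval -1.23 to 1.05) in model mice against control mice and 0.22 (-0.92 to 1.36) in Rhy mice against model mice. The direction was not stable. Without the 3 libraries with Hoxb13 near 0, the model group was 0.24 higher than the control group on the log2 scale, and the DXM group was 0.82 higher than the control group where the full fit gave -0.05.

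Muc4 and Muc13 took opposite places in the libraries with Hoxb13 near 0. In control 3, model 3 and Rhy 1, Muc4 was the highest and Muc13 the lowest of the group. Muc4 was at 26.9 to 40.4 CPM in these 3 libraries and at 11.2 to 32.0 CPM in the other 9, and Muc13 at 1261 to 1351 CPM against 1329 to 3188 CPM. Both ranges overlapped through DXM 2 for Muc4 and DXM 1 for Muc13, in which Hoxb13 was at 195 and 221 CPM. Muc2 was also high in control 3 (6710 CPM) and model 3 (4528 CPM), but not in Rhy 1 (717 CPM). Since the 3 libraries were picked by a measured gene and belong to 3 different groups, they were not tested against the other 9. In contrast, Muc1 and Muc20 were not ordered this way, with Muc20 lowest in Rhy 1 and highest in control 3 within these groups.

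**Figure D3:**
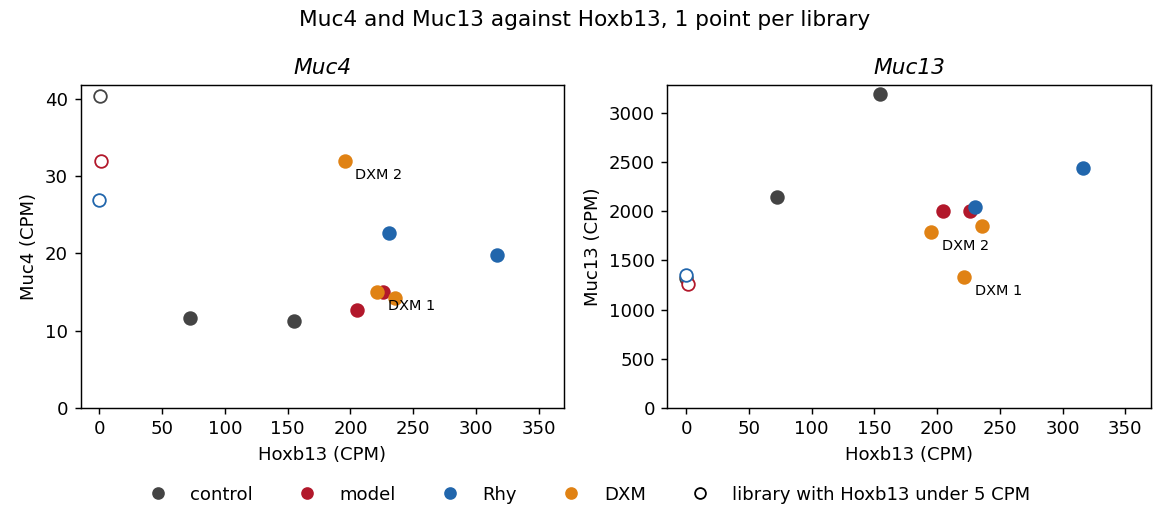
Muc4 (left) and Muc13 (right) in CPM against Hoxb13 in CPM, with 1 point per library coloured by group, DXM 1 and DXM 2 labelled, and open circles for control 3, model 3 and Rhy 1, the libraries with Hoxb13 under 5 CPM. The 3 open circles lie at 26.9 to 40.4 CPM of Muc4 and at 1261 to 1351 CPM of Muc13.

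Muc1, a mucin of many epithelia whose tail takes part in receptor signaling, was highest in the DXM group. It was at 15.1, 24.7 and 13.2 CPM in DXM 1, 2 and 3, which were the 3 highest of the 12 libraries. It was at 11.7, 1.81 and 5.76 CPM in control 1, 2 and 3, at 5.41, 6.19 and 3.57 CPM in model 1, 2 and 3, and at 2.40, 11.2 and 10.8 CPM in Rhy 1, 2 and 3. The underlying counts were 220 to 513 per DXM library and 26 to 191 in the others. The DXM group thus overlapped with no other group, whereas the control, model and Rhy groups overlapped with each other. Hoxb13 was at 195.3 to 235.9 CPM in the DXM libraries, but under 5 CPM in control 3, model 3 and Rhy 1. Muc1 was lowest in model 3 and Rhy 1 within their groups, and in control 2 within the control group. Without control 3, model 3 and Rhy 1, its mean was 6.745, 5.797, 11.02 and 17.68 CPM in control, model, Rhy and DXM mice. The part of colon position in the level of Muc1 was not tested.

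Against the model group, Muc1 was 3.49-fold higher in the DXM group, with a log2 fold change of 1.81 (SE 0.64, 95% confidence interval 0.41 to 3.20). By edgeR, the unadjusted p was 0.0157 and the adjusted p 0.622, so Muc1 was not called, in a comparison in which 7.69% of the genes had an unadjusted p under 0.05 and 0% were called. Of the members, 3 (Muc1, Muc3 and Muc20) were higher without overlap, and 10.4% of all genes were. Under the alternatives the log2 fold change of Muc1 ran from 1.41 to 1.98, and it was called in 1 of 17. That was DESeq2 on the 6 libraries compared (adjusted p 4.4e-05), which called 3.50% of the genes it tested, and DESeq2 on all libraries gave an adjusted p of 0.208. Against the control group, Muc1 was 2.76-fold higher (log2 fold change 1.46, SE 0.63), with an edgeR adjusted p of 0.244. In that comparison Muc1 and Muc3 had an unadjusted p under 0.05, as had 18.9% of the genes. Only Muc1 among the members was higher without overlap there, as were 9.77% of the genes, and 0% of the genes were called. The exact permutation p was 0.1 against either group, the smallest possible. Without control 3, model 3 and Rhy 1, the log2 fold change of Muc1 in the DXM group was 1.63 against the model group and 1.38 against the control group.

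Markers of several cell types lay in the same direction as Muc1, and most of those of colonocytes did not. Between the DXM and model groups, 5 of 5 fibroblast markers were higher (median log2 fold change 1.10) and 4 had an unadjusted p under 0.05, beside 7.69% of all genes, with a summed level of 479 to 955 CPM against 275 to 299 CPM. Of the smooth muscle markers, 7 of 7 were higher (median 0.69) and 3 had an unadjusted p under 0.05, with 5073 to 9104 CPM against 3649 to 4767 CPM. Of the goblet markers, 6 of 8 were higher (median 0.93) and 1 had an unadjusted p under 0.05, with 7845 to 13650 CPM against 5128 to 9681 CPM. No marker of these 3 lists was at 0 in all libraries. Of the surface colonocyte markers, 2 of 8 were higher and 6 lower (median -0.28), with 4834 to 18930 CPM against 10530 to 18800 CPM. The 1 of them with an unadjusted p under 0.05, Slc26a3, was higher in the DXM group (log2 fold change 0.97, edgeR adjusted p 0.646). Its mean was 882 CPM there and 451 CPM in the model group. Pan-epithelial markers had 1 of 8 higher and 7 lower (median -0.20), with 13390 to 15820 CPM against 14600 to 16880 CPM. Of these, 0 had an unadjusted p under 0.05. Among the remaining lists, 5 of 8 immune, 1 of 5 tuft, 0 of 3 fat, 0 of 1 mesothelial and 1 of 1 acinar markers tested were higher, as were 3 of 4 genes of colon position. As a share of the pan-epithelial sum, Muc1 was at 0.0954%, 0.185% and 0.0960% in DXM 1, 2 and 3 and at 0.00991% to 0.0550% in the other 9 libraries, so the DXM mice also stood apart on this scale. The part of the fibroblast, smooth muscle and goblet markers in the level of Muc1 was not tested.

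**Figure D4:**
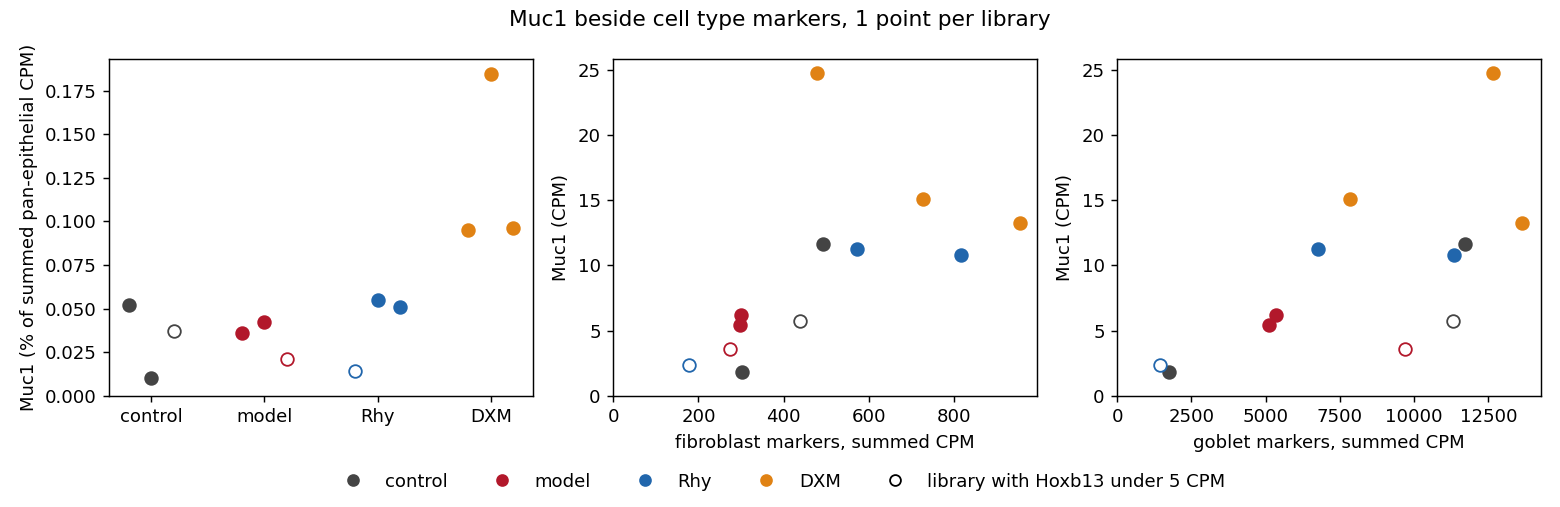
Muc1 as a percentage of the summed CPM of 8 pan-epithelial markers by group (left), and Muc1 in CPM against the summed CPM of 5 fibroblast markers (middle) and of 8 goblet markers (right), with 1 point per library. The 3 DXM points lie at 0.0954% to 0.185% in the left panel, above the other 9 libraries, and at 479 to 955 CPM of fibroblast markers in the middle panel.

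Muc20, the rarest member, was at 0.599, 0.0695 and 2.36 CPM in control 1, 2 and 3, at 0.717, 0.546 and 0.655 CPM in model 1, 2 and 3, at 0.171, 1.31 and 1.08 CPM in Rhy 1, 2 and 3, and at 0.960, 1.40 and 1.42 CPM in DXM 1, 2 and 3. The control group alone covered a 33.9-fold range, from 1 count in control 2 to 43 counts in control 3. The DXM libraries were above the model libraries, with a log2 fold change of 0.97 (SE 0.87, edgeR adjusted p 0.783). Against the control group the log2 fold change was 0.29 (SE 0.85) with control 3 and 1.89 without it. At these counts, and with the exonic overlap with Muc4, no difference of Muc20 between the groups was detectable.

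In model mice against control mice, 5 of 5 members had a negative log2 fold change (median -0.34 against 0.01 over all genes), but 1 of 5, Muc3, had an unadjusted p under 0.05, and no member was without overlap, where 17.0% of all genes were. In the Rhy group against the control group, 2 were higher and 3 lower (median -0.19), and 0 of 5 had an unadjusted p under 0.05, where 11.6% of all genes did. None of the 5 was without overlap there, where 12.3% of the genes were, and 0% of the genes were called. In the DXM group against the control group, 2 were higher and 3 lower (median -0.05). For the 9 DSS-treated mice against the control mice, 1 was higher and 4 lower (median -0.21), 0 of 5 were without overlap, where 3.28% of all genes were, and 0% of the genes were called. At 1 or 2 of 5 members, none of these numbers can be set apart from the share over all genes.

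**Figure D5:**
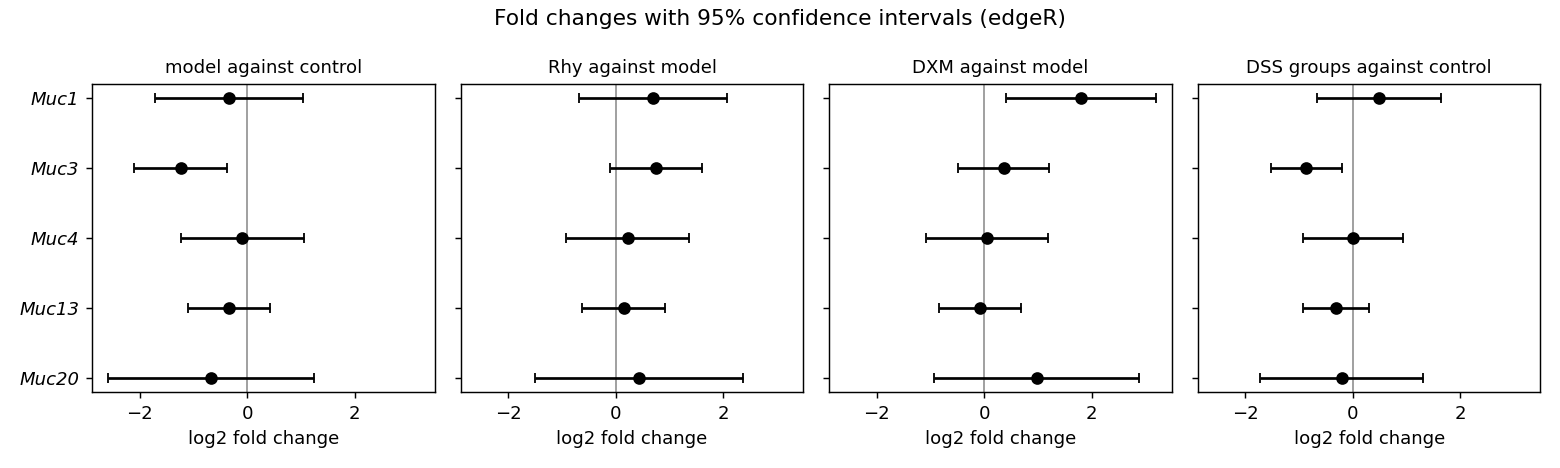
Log2 fold change (points) with its 95% confidence interval (bars) for each transmembrane mucin in 4 comparisons, from the edgeR fit of all 12 libraries. The interval excludes 0 for Muc3 in model mice against control mice (-2.10 to -0.37) and in the DSS-treated mice against the control mice (-1.53 to -0.20), and for Muc1 in the DXM group against the model group (0.41 to 3.20), and no adjusted p was under 0.05.

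The genes nearest to each member in pattern were found by Pearson's r of log2 CPM over the 12 libraries, given as a description because libraries share groups, cell makeup and depth. They are the 3 highest of all 16904 genes, so a high r is in part a product of the search. Nearest to Muc3 were Tmem45b (r = 0.92), Gm40348 (r = 0.90) and Baiap2 (r = 0.89). Gm40348 starts 404 bases from the RefSeq start of Muc3 on the opposite strand and had 10 to 56 counts per library. For Muc13 they were Cd14 (0.92), the co-receptor for bacterial lipopolysaccharide, Nos2 (0.92), the inducible nitric oxide synthase, and Gm23935 (0.90). For Muc1 they were 2610301B20Rik (0.93), the pancreatic polypeptide gene Ppy (0.91) and the metalloproteinase inhibitor Timp1 (0.91). For Muc4 they were B3galt2 (0.91), Tox (0.90) and Galk2 (0.89), and for Muc20 the ephrin receptor Ephb3 (0.95), Kdelr3 (0.93) and the thrombin receptor F2r (0.92). The values for Muc20 rest on 1 to 43 counts per library. No gene appeared near more than 1 member.

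Other genes of the mucin pathway were followed as lists, and none of their genes was called in any comparison. Of 15 other mucins, 12 were in the table and 5 were tested, with 1 higher and 4 lower in model mice against control mice and 0 at an unadjusted p under 0.05. The endothelial sialomucin Emcn was at 4.99 ± 0.592, 4.45 ± 0.302, 6.07 ± 2.15 and 8.13 ± 3.32 CPM in control, model, Rhy and DXM mice (mean ± SD, 3 mice each). Cd164 was at 196 ± 67.8, 200.2 ± 33.8, 220.0 ± 47.1 and 222 ± 79.2 CPM in the same order. Mucl3 and Ovgp1, which were lowest relative to the control group, were under 1 CPM in every group mean. Their means were 0.484 ± 0.493, 0.0919 ± 0.159, 0.582 ± 0.512 and 0.437 ± 0.676 CPM for Mucl3 and 0.735 ± 0.615, 0.397 ± 0.452, 0.448 ± 0.308 and 0.783 ± 0.629 CPM for Ovgp1. These spreads are as large as the differences.

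A list of 32 genes centred on O-glycosylation held mainly the glycosyltransferases that build O-glycans on mucins, beside the chaperone gene C1galt1c1, the nucleotide sugar transporter genes Slc35a1 and Slc35a2, and Fut8 and St6gal1, which act on N-glycans. Of these, 31 were tested, with 11 higher and 20 lower in model mice against control mice (median -0.15) and 0 at an unadjusted p under 0.05. The lowest relative to the control group were B3gnt6, the core 3 synthase, and Gcnt3, the core 2 and core 4 branching enzyme. B3gnt6 was at 20.3 ± 28.4, 7.11 ± 10.8, 2.76 ± 2.14 and 2.31 ± 1.72 CPM in control, model, Rhy and DXM mice, and its control spread exceeded the mean. Gcnt3 was at 393 ± 225, 164 ± 101, 188 ± 119 and 129 ± 50.7 CPM, with a log2 fold change of -1.26 (SE 0.60, edgeR adjusted p 0.527). The highest were the fucosyltransferase gene Fut2 and the sialyltransferase gene St6galnac1. Fut2 was at 251 ± 135, 327 ± 72.7, 144 ± 11.7 and 219 ± 117 CPM, and its log2 fold change of -1.18 (SE 0.43) in Rhy mice against model mice had an edgeR adjusted p of 0.9997. St6galnac1 was at 0 in 6 of the 12 libraries and reached 8.41 CPM in DXM 3, so no fold is given.

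For mucin partners and regulators, 30 of 31 genes were tested. In model mice against control mice, 26 were lower and 4 higher (median -0.23), and 7 of the lower ones had an unadjusted p under 0.05, beside 9.62% of all genes. Slc9a3r1, the brush border scaffold NHERF1, was at 841 ± 280, 393 ± 107, 531 ± 94.3 and 299 ± 138 CPM in control, model, Rhy and DXM mice, with a log2 fold change of -1.10 (SE 0.36, edgeR adjusted p 0.479). Il22ra1, a subunit of the receptor for interleukin-22, was at 20.7 ± 13.6, 9.70 ± 2.01, 11.2 ± 3.85 and 4.66 ± 2.38 CPM. The intestinal homeobox gene Cdx1 was at 385 ± 61.6, 535 ± 65.0, 530 ± 107 and 419 ± 139 CPM, and Hgf, the ligand of Met, at 0.596 ± 0.634, 1.18 ± 0.665, 1.42 ± 1.44 and 1.95 ± 0.458 CPM. In Rhy mice against model mice, 22 were higher and 8 lower (median 0.13), and 1 had an unadjusted p under 0.05, beside 3.72% of all genes. In the DXM group against the model group, 11 were higher and 19 lower (median -0.12), and 2 of the lower ones had an unadjusted p under 0.05, beside 7.69% of all genes. Pan-epithelial markers lay the same way, with 8 of 8 lower in model mice against control mice, 7 of 8 higher in Rhy mice against model mice and 7 of 8 lower in the DXM group against the model group, and their part in the list was not tested.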

How the data were processed

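RNA-Seq of colon tissue covered 12 libraries. The sequencing methods of the study name only control, model and Rhy mice, and DXM comes from the labels. Per the labels, the submitters' processing notes name HISAT2 2.0.5, featureCounts 1.5.0-p3, DESeq2 1.16.1 and mm10. The deposited counts are whole reads per gene without normalization, and the FPKM values deposited by the authors divide them by gene length and a scaled library size. Strand use and the annotation are not given in the sources used here.

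The members and gene lists were chosen with earlier results of these data known. The main test was that of edgeR 4.0.16 under R 4.3.3 (filterByExpr, minimum count 10, TMM, quasi-likelihood test, two-sided, all 12 libraries in 1 fit, Benjamini-Hochberg adjustment over 16904 genes). The standard error is the log2 fold change over the square root of F. No prior count was added to CPM, while correlations used log2 CPM with a prior count of 2. The alternatives also used limma 3.58.1 and DESeq2 1.42.0. Scripts were tested on simulated data. Named genes were the 5 members, the 3 nearest genes to each by correlation, and the 2 largest and 2 smallest log2 fold changes of each pathway list in model mice against control mice. Muc2, Muc3a, Hoxb13, Gm3054 and Gm15657 were named after their values were seen, as were the mucins listed by level. Nothing states whether libraries came from separate extractions, so p-values measure the spread between these samples. At 14346478 to 17749716 counts per library, Muc20 had 1 to 43 counts.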

Additional observations from a re-analysis of the deposited data

How the results depend on the processing

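The alternatives were RLE scaling, all genes with a count, a replicate block, a fit to only the groups compared, DESeq2 on all libraries or only the groups compared, limma on log2(FPKM + 1) and log2(FPKM + 0.1), model 1 and 2 summed, and each library left out. After seeing the data, 3 were added: libraries with Hoxb13 of at least 5 CPM only, centring on the pan-epithelial markers, and Muc3 summed with Muc3a. Of 30 log2 fold changes, 11 kept their sign in every alternative run for them, among them the 6 of Muc3. The number of members called was 0 except in the following settings. It was 1 under DESeq2 on only the groups compared (Muc1, DXM against model), which called 3.50% of its genes. It was also 1 in the Hoxb13-high libraries (Muc3, DSS-treated against control). That setting was chosen after the data were seen and leaves out control 3, the lowest control library for Muc3. No share over all genes is given for it, so that call is a description only. The cause was not tested. Equal replicate numbers did not pair the samples: their deviations correlated at -0.31 to 0.36, over 0.1 in 6 of 18 pairs. The replicate block called 0 members and turned Muc4 to 0.19 (DXM against control) and 0.17 (DSS-treated against control) and Muc20 to 0.052 (DSS-treated against control).

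Other log2 fold changes that reversed are these. In the Hoxb13-high libraries, Muc4 was 0.24 (model against control), 0.82 (DXM against control) and 0.65 (DSS-treated against control), and Muc20 0.89, 1.82 (Rhy against control) and 1.54 (DSS-treated against control). With pan-epithelial centring, Muc1, Muc4 and Muc20 were 0.24, 0.33 and 0.38 (model against control), Muc13 and Muc20 -0.091 and -0.16 (Rhy against model), Muc13 0.12 (DXM against model), Muc20 0.22 (Rhy against control), Muc4 and Muc13 0.58 and 0.10 (DXM against control), and Muc4 and Muc20 0.45 and 0.67 (DSS-treated against control). With log2(FPKM + 0.1), Muc4 was 0.0044 (model against control), 0.069 (DXM against control) and 0.14 (DSS-treated against control), and Muc20 0.036 (Rhy against control) and 0.16 (DSS-treated against control). With log2(FPKM + 1), Muc4 was 0.014 (DXM against control) and 0.057 (DSS-treated against control). With model 1 and 2 summed, Muc4 was 0.11 (model against control), -0.16 (DXM against model) and 0.067 (DSS-treated against control), and Muc13 0.019 (DXM against model). With any count, Muc4 was 0.0051 (DSS-treated against control).

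Leaving out each library in turn, the lowest and highest log2 fold changes of results that reversed were as follows. Muc1 ran from -0.78 without control 2 to 0.41 without control 1 (model against control), -0.0845 without control 2 to 1.10 without control 1 (Rhy against control). Muc13 ran from -0.63 without control 3 to 0.0203 without control 1 (model against control), -0.0504 without Rhy 2 to 0.35 without Rhy 1 (Rhy against model), -0.26 without model 3 to 0.0498 without DXM 1 (DXM against model), -0.46 without control 3 to 0.17 without control 1 (Rhy against control), -0.60 without control 3 to 0.0407 without control 1 (DSS-treated against control). Muc4 ran from -0.67 without model 3 to 0.77 without control 3 (model against control), -0.0194 without model 2 to 0.77 without model 3 (Rhy against model), -0.44 without DXM 2 to 0.58 without model 3 (DXM against model), -0.17 without control 1 to 1.01 without control 3 (Rhy against control), -0.53 without DXM 2 to 0.82 without control 3 (DXM against control), -0.30 without control 1 to 0.87 without control 3 (DSS-treated against control). Muc20 ran from -1.22 without control 2 to 0.92 without control 3 (model against control), -0.78 without control 2 to 1.37 without control 3 (Rhy against control), -0.24 without control 2 to 1.89 without control 3 (DXM against control), -0.75 without control 2 to 1.39 without control 3 (DSS-treated against control).

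Muc3 ran from -0.54 to -1.26 (DSS-treated against control), -0.91 to -1.64 (model against control) and 0.45 to 0.90 (Rhy against model) and did not reverse. Counts of Muc20, 1 to 43 per library, limit its values.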
